A study of Mus musculus with 4 samples.

Results

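The interferon response genes described here are 9 genes chosen by name from the 31053 genes of the count matrix: Irf7, Ifit1, Ifit3, Isg15, Oasl2, Rtp4, Bst2, Ifitm3 and Ifi27l2a. All 9 were in the matrix, and each was followed across 4 single-cell libraries and across cell classes gated on marker genes. The study asked how the maternal genotype of Cyp27a1, the gene of the enzyme sterol 27-hydroxylase, affects fetuses that themselves lack the gene. Every fetus was labelled Cyp27a1-/-, so the deletion was shared by all groups and there was no wild-type fetus. The 4 groups were E14.5 (embryonic day) fetuses of a Cyp27a1+/- mother, E14.5 fetuses of a Cyp27a1-/- mother, and E18.5 fetuses of each kind of mother, with 1 library of lung cells per group. They are called het-mother and null-mother libraries below. Cells were released with collagenase and dispase, red cells were lysed with ammonium chloride, and the libraries were made with the 10x Chromium system. How many fetuses were pooled, from how many litters, was not stated.

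Type I interferons bind the receptor IFNAR on the cell surface, which activates kinases inside the cell. A complex of transcription factors that includes IRF9 then binds interferon-stimulated response elements in the promoters of target genes. IRF7, itself a target, is the transcription factor that amplifies production of type I interferon. IFIT1 and IFIT3 bind viral RNA or assemble on it, ISG15 is a ubiquitin-like protein that is attached to other proteins, and OASL2 belongs to the oligoadenylate synthetase family. BST2 (tetherin) holds budding virus particles at the cell surface, IFITM3 blocks fusion of viruses with endosomal membranes, RTP4 is a receptor chaperone that also binds RNA, and Ifi27l2a encodes a small membrane protein. In macrophages and endothelium of many tissues a low level of such genes is present without infection.

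The promoters are shown because the shared response element is what groups these genes. Of the 9 genes, 7 had an entry in the RefSeq promoter table (GRCm38.p6), which spans 300 bases around each gene's start. The core searched was GAAANNGAAA on both strands, overlapping matches included. It was present in 1131 of 32851 promoters (3.44%), and at least 2 matches were present in 74 (0.225%). Isg15 held 3 matches, and Bst2, Ifit1, Ifit3 and Ifitm3 held 2 each. The windows of Irf7 and Oasl2 held none, which says only that these letters are not in those windows. Capitals mark the matches, read 5′ to 3′ on the gene's strand, so that matches on the opposite strand appear as TTTCNNTTTC.
Isg15, chr4:156200819-156200988, minus strand: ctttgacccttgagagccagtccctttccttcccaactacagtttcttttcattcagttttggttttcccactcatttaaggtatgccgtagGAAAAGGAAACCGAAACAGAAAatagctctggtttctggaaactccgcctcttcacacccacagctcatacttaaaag
Bst2, chr8:71537473-71537642, minus strand: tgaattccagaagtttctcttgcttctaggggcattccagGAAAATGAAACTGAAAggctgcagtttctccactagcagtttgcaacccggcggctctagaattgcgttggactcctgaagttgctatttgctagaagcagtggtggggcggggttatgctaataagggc
Ifit3, chr19:34583359-34583528, plus strand: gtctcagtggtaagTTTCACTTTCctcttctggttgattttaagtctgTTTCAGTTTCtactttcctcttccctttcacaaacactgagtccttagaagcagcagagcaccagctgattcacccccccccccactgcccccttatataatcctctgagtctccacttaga
Ifit1, chr19:34640719-34640888, plus strand: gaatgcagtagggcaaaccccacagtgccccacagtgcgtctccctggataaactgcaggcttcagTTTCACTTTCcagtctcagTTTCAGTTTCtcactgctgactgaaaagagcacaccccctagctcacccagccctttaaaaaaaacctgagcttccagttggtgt
Ifitm3 site, chr7:141010716-141010742, minus strand: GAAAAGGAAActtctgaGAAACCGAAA
In Isg15 the 3 matches overlapped one another in a single run, and in Bst2 the 2 matches overlapped in the same way. In Ifit1 and Ifit3 the same pair of letters, TTTCACTTTC before TTTCAGTTTC, stood apart, and in Ifitm3 both matches lay after the annotated start. The interferon-gamma element TTCNNNGAA, found in 8.30% of promoters, had 1 match each in Bst2 and Ifitm3, in both overlapping a match of the core. In the GENCODE vM21 annotation of mm10 the genes lie on 7 autosomes: Ifit3 (chromosome 19, 34583531 to 34588731) and Ifit1 (chromosome 19, 34640871 to 34650009) are neighbours on the plus strand. Ifitm3 (141009586 to 141010770) and Irf7 (141262706 to 141266481) are on the minus strand of chromosome 7. None is linked to the X or Y chromosome. Irf7 overlaps Phrf1 on the other strand, and Rtp4 overlaps Masp1 and Gm45338. Of the 410 windows of 91 bases in the last 500 bases of Ifit3, 26 (6.34%) also occur in Ifit3b, so its reads may in part be split with that gene.

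The E14.5 libraries held 4957 (het mother) and 4843 (null mother) cells and the E18.5 libraries 17034 and 16517, with 47005276, 53293964, 97894048 and 118054232 unique molecular identifiers (UMIs, counted transcripts) in that order. Transcripts of Cyp27a1 were present in all 4 (878, 1049, 3766 and 4402 UMIs), which does not check the labels because a deleted allele can still be transcribed outside the deleted part. The title of the E18.5 het-mother sample carries a WT tag against its genotype label, and the label was followed. At E18.5 the defining lung marker Nkx2-1 had 4 and 1 UMIs, against 1935 and 2804 at E14.5, while Alb, made by hepatocytes, reached 2905 and 8344 CPM (UMIs scaled to a total of 1000000) against 0.574 and 0.469. The E18.5 cells therefore go against their tissue label, and tissue and age cannot be told apart. Haemoglobin took 14.2% and 5.92% of E18.5 UMIs. Between 43.0% and 58.3% of E14.5 cells and 19.6% and 25.4% of E18.5 cells passed no gate. Class names stand for gates (macrophage-like, endothelium-like and so on). The E18.5 macrophages were led by C1qa, C1qc and Cd5l, the endothelium by Fabp4 and Lyve1, and the monocytes by Ms4a6c, Ccr2 and F13a1, with Ifi27l2a among their 10 leading genes. Between 93 and 164 cell barcodes were shared by any pair of libraries.

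The sex of the cells split the E18.5 libraries. Cells with UMIs of the Y-linked genes Ddx3y, Eif2s3y, Kdm5d or Uty and none of Xist, which is transcribed in female cells, were called male, and cells with Xist and no Y-linked UMI female. The E18.5 het-mother library had 5395 male and 22 female cells, and the null-mother library 3875 male and 4411 female cells. At E14.5 both libraries held both sexes, with 819 male and 1507 female cells against 726 and 2052. Each E18.5 comparison is therefore given with its value in male cells. The call favoured deep cells. In the E18.5 het-mother library male cells had a median of 8121 UMIs, against 3087 in the 11610 cells with neither signal. In the E18.5 null-mother library the medians were 9650 UMIs and, for 7800 cells with neither signal, 3169.5. A male-cell ratio thus compares the deeper part of each library, and the part of depth in it was not tested. Male and female cells come from different fetuses, so that sex and fetus cannot be told apart within a library.

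With 1 library per group no test of mother or age was possible. Values are CPM of the summed cells of a class with exact 95% intervals for counting error only, which also holds for the intervals of ratios and shares, and fetuses may vary more. A gene was called higher or lower when its CPM differed by at least 1.5-fold and the higher library had at least 50 UMIs. In summed cells of mixed type, more cells of a type and more RNA per cell cannot be told apart.

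The 9 genes were highest in macrophages, endothelium and monocytes. Averaged over the genes on the log2 scale and centred over 36 class sums, the level was 2.50 and 2.09 in E18.5 macrophages of the null-mother and het-mother libraries, 1.83 and 1.61 in E18.5 endothelium, and 1.53 and 1.17 in E18.5 monocytes. The E14.5 macrophage and monocyte class was at 1.27 and 0.87. E18.5 mesenchyme differed between the libraries, at 1.20 and -0.10, so that its null-mother value lay above that of het-mother monocytes. Lung epithelium of E14.5 stood at -1.14 and -1.18, and E14.5 erythroid cells were lowest at -1.35 in both. The genes that followed the same order most closely were Rtp4 and Oasl2, with correlations of 0.92 and 0.90 with the mean of the other 8 genes. Isg15 (0.68) and Ifi27l2a (0.67) followed it least. These correlations describe 36 sums that share 4 libraries and their depth.

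**Figure D1:**
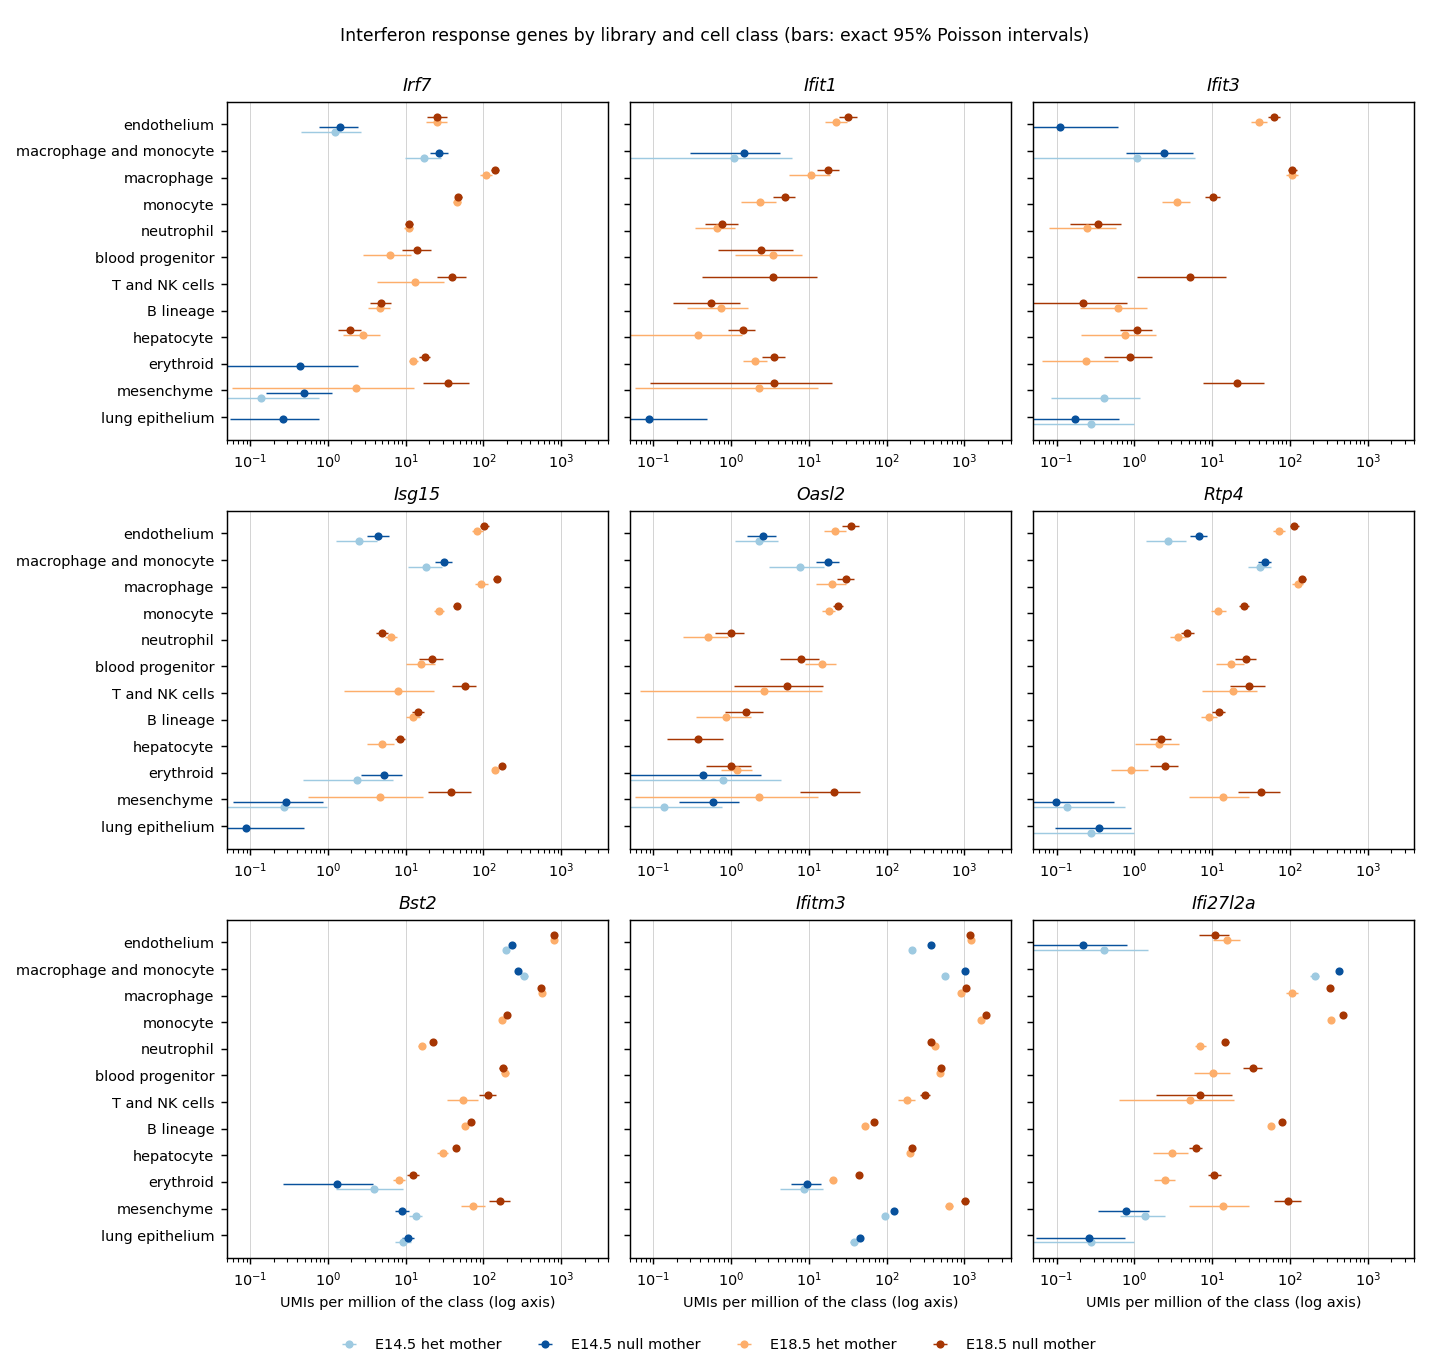
Level of each of the 9 genes in CPM (log axis) by cell class, with a point for each of the 4 libraries and bars for the exact 95% counting interval. Irf7, Rtp4 and Ifit3 peak in E18.5 macrophages, Bst2 in E18.5 endothelium, Ifitm3 and Ifi27l2a in E18.5 monocytes, and Isg15 in E18.5 erythroid cells, among classes of at least 50 cells.

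Irf7, the transcription factor, was a macrophage gene in these cells. At E18.5 it had 107 CPM in macrophages of the het-mother library and 140 CPM in those of the null-mother library, against 45.6 and 47.6 CPM in monocytes and 25.2 and 25.4 CPM in endothelium. In E14.5 macrophages and monocytes it had 17.3 and 27.1 CPM, and in E14.5 mesenchyme 0.136 and 0.487 CPM. Ifit3 reached 108 CPM in macrophages of both E18.5 libraries and 40.3 and 62.8 CPM in endothelium, but 3.53 and 10.3 CPM in monocytes and under 1 CPM in B lineage cells and neutrophils. At E14.5 it was nearly absent, with 14 and 13 UMIs in all cells. Ifit1 was sparser still: it peaked in E18.5 endothelium at 22.4 and 32.2 CPM and had 1 and 5 UMIs in the E14.5 libraries. Oasl2 peaked in the same endothelium (21.8 and 34.7 CPM), beside macrophages (19.7 and 29.7 CPM) and monocytes (17.9 and 23.9 CPM), and the intervals of endothelium and macrophages overlapped in both libraries. Rtp4 had 127 and 145 CPM in E18.5 macrophages, 73.3 and 115 CPM in endothelium, and 12.1 and 25.7 CPM in monocytes.

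The membrane proteins were far more abundant, with a different order of classes. Ifitm3 had 1657 and 1877 CPM in E18.5 monocytes, 1229 and 1190.3 CPM in endothelium, and 891 and 1057 CPM in macrophages. It also reached 865 and 1051 CPM in megakaryocytes, where Irf7 had 6.27 and 4.64 CPM. Bst2 had 803 and 815 CPM in E18.5 endothelium and 571 and 547 CPM in macrophages, and its lowest value was 1.30 CPM in E14.5 erythroid cells of the null-mother library. In the 7 and 11 E18.5 cells gated as dendritic cells, whose list includes plasmacytoid markers, Bst2 stood at 2494 and 2260.3 CPM. Ifi27l2a was high in monocytes and macrophages and low in endothelium. It had 342 and 486 CPM in E18.5 monocytes and 107 and 329 CPM in macrophages, but 15.7 and 10.9 CPM in endothelium. At E14.5 it had 208 and 434 CPM in macrophages and monocytes and under 1 CPM in endothelium and lung epithelium.

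At E14.5, 7 of the 9 genes were past 1.5-fold higher with the null mother when all non-erythroid cells were summed, and none was lower. Of all 13515 genes measured there, 8.58% were higher past that fold and 3.22% lower. Ifi27l2a had 223 UMIs in 4767 cells of the het-mother library and 933 UMIs in 4502 cells of the null-mother library, or 4.88 and 18.3 CPM, a ratio of 3.75 (3.24 to 4.36). Irf7 had 29 and 90 UMIs, a ratio of 2.78 (1.81 to 4.39). The ratio of Oasl2 was 2.61 (1.76 to 3.96), that of Rtp4 2.45 (1.84 to 3.29) and that of Isg15 2.06 (1.51 to 2.83). Among the abundant genes, Ifitm3 went from 116 to 200 CPM (1.72, 1.67 to 1.78) and Bst2 from 38.1 to 63.7 CPM (1.67, 1.58 to 1.77). The median log2 ratio of the 9 genes, with 10 CPM added to both sides, was 0.17, against -0.01 over all genes measured. The 7 genes were higher in cells of either sex: Ifitm3 had a ratio of 1.71 in male and 1.72 in female cells, Bst2 1.71 and 1.76, and Ifi27l2a 2.65 and 4.79. In male cells the intervals of Irf7 and Oasl2 included 1.

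The mix of E14.5 cells differed between the libraries in the same direction. The 11 macrophage markers summed to 188 and 368 CPM in non-erythroid cells, with 2 and 3 of them at 0, and the gate held 71 and 110 macrophages and monocytes. Endothelial markers summed to 466 and 833 CPM and monocyte markers to 173 and 214 CPM, while heart muscle markers went from 497 to 137 CPM. The part of these shifts in the result was not tested, and values within a class follow. Within macrophages and monocytes Ifi27l2a went from 208 to 434 CPM (2.09, 1.78 to 2.45) and Ifitm3 from 557 to 1020.0 CPM (1.83, 1.66 to 2.02). Isg15 (17 and 64 UMIs, ratio 1.68) and Irf7 (16 and 56 UMIs, ratio 1.56) were also past the fold, with intervals that include 1. Those 4 of the 9 compare with 8.09% of the genes of that class. Without cells whose barcode is also in another library 2 were past the fold, and without the deepest cells 1. Bst2 was slightly lower there, at 329 and 274 CPM (0.832, 0.723 to 0.960), and Rtp4 stood at 41.2 and 47.5 CPM. Median depth in the class was 4770 and 16538 UMIs per cell. Among its 15 and 22 male cells the log2 ratios of Irf7 (-0.25) and Ifitm3 (-0.037) were below 0.

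In E14.5 endothelium Ifitm3 went from 214 to 374 CPM (1.75, 1.63 to 1.88), with ratios of 1.42 in male and 2.12 in female cells. Rtp4 had 13 and 61 UMIs (2.53, 1.37 to 5.01), and Bst2 was higher by less than the fold, at 196 and 233 CPM (1.19, 1.10 to 1.28). Ifitm3 and Rtp4 were the 2 genes past the fold there, where 4.12% of genes were, and 1 was without cells whose barcode is in another library or without the deepest cells. In mesenchyme Bst2 went the other way, from 13.5 to 8.96 CPM (0.664, 0.495 to 0.891), the 1 gene lower past the fold, as 2.49% of genes were, though the largest part of the class was cluster 0 in the het-mother library (21.4%) and cluster 2 in the null-mother library (27.0%). It was not past the fold with clusters in place of gates, with median-of-ratios scaling or as a mean over cells, and in male cells (ratio 0.536, 0.231 to 1.19; 19 and 11 UMIs) it was under the minimum count. Ifitm3 in mesenchyme was 94.6 and 124 CPM. Lung epithelium had low levels and none of the 9 past the fold, where 4.43% of genes were higher, with Ifitm3 at 38.3 and 45.8 CPM.

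At E18.5 all 9 genes were higher with the null mother over all non-erythroid cells, and male cells alone did not show this. With all 12138 and 13779 cells, Ifit3 went from 3.40 to 7.24 CPM (2.13, 1.85 to 2.45), Rtp4 from 8.55 to 15.3 CPM (1.79, 1.64 to 1.96), Isg15 from 14.2 to 23.2 CPM (1.63, 1.52 to 1.75) and Ifi27l2a from 46.6 to 72.3 CPM (1.55, 1.49 to 1.61). These 4 were past the fold, where 9.79% of genes were, and the other 5 had ratios from 1.09 (Ifitm3) to 1.47 (Ifit1 and Oasl2). In male cells 0 genes were past the fold higher, where 9.35% of genes were. Ifit1 was the 1 lower, where 4.97% of genes were, at 1.76 and 0.904 CPM (0.513, 0.339 to 0.764). Oasl2 had a male-cell ratio of 0.677 (0.516 to 0.883) and Ifi27l2a of 0.885 (0.824 to 0.951). Ifit3 (1.08) and Bst2 (0.990) had intervals that include 1. Rtp4 (1.36, 1.16 to 1.60) and Isg15 (1.22, 1.08 to 1.38) remained above 1 in male cells. The median log2 ratio of the 9 was 0.23 in all cells and -0.032 in male cells. Male cells did not stand for the whole het-mother library, although only 22 of its cells were called female. In them the 4 genes past the fold in all cells were below the levels given above. Ifit3 was at 2.54, Rtp4 at 5.95, Isg15 at 10.9 and Ifi27l2a at 36.9 CPM. The parts of sex and of depth in the male-cell ratios were not tested.

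Ifi27l2a stayed past the fold in male macrophages and male neutrophils. It had 107 and 329 CPM in all macrophages (333 and 377 cells; ratio 3.07, 2.53 to 3.75) and 82.3 and 214 CPM in male ones (100 and 105 cells; ratio 2.60, 1.88 to 3.65). Isg15 was at 93.8 and 148 CPM in all macrophages and had a ratio of 1.40 (0.949 to 2.08) in male ones, and Oasl2 went from a ratio of 1.51 to 0.799. Those 3 were past the fold in all macrophages, where 7.56% of genes were, and Ifi27l2a alone in male ones, where 6% of genes were. Ifit3, Bst2 and Rtp4 had ratios in male macrophages of 0.732, 0.921 and 0.960. Median depth of the class was 1921 and 4532 UMIs per cell. In neutrophils Ifi27l2a had 7.10 and 14.7 CPM (142 and 343 UMIs; ratio 2.08, 1.70 to 2.55) and in male ones 5.83 and 11.5 CPM (47 and 76 UMIs; ratio 1.98, 1.36 to 2.91). It was the 1 gene past the fold there, where 6.54% of genes were, and 5.07% in male cells.

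In E18.5 monocytes Ifit3 (ratio 2.92, 1.84 to 4.82), Rtp4 (2.13) and Isg15 (1.67) were past the fold, where 3.5% of genes were. In male monocytes 0 were higher (3.09% of genes were) and 2 lower (5.34% of genes): Oasl2 at 16.9 and 5.65 CPM (0.334, 0.181 to 0.581) and Irf7 at 35.3 and 22.6 CPM (0.640, 0.470 to 0.865). In endothelium Oasl2 (1.59), Ifit3 (1.56) and Rtp4 (1.56) were past the fold, where 3.15% of genes were, and 0 in male cells, where 3.63% of genes were. Bst2 and Ifitm3, the abundant genes of that class, had ratios of 0.968 and 0.986 in male endothelium. Hepatocytes had 2 genes past the fold (Ifi27l2a 2.06 and Isg15 1.73; 8.86% of genes), with 0 in male cells (8.63% of genes). T and NK cells also had 2, Bst2 (2.04) and Ifitm3 (1.72), where 9.66% of genes were. The 23 male T and NK cells of the null-mother library were fewer than the 30 set for a value by sex. In E18.5 mesenchyme (84 and 63 cells) all 9 genes were higher with the null mother, 8 with an interval above 1, but only Ifitm3 had the minimum count. Ifitm3 went from 637 to 1017 CPM (1.60, 1.35 to 1.89), where 6.36% of genes were past the fold, Ifi27l2a had 6 and 27 UMIs and Bst2 32 and 46 UMIs. Of the UMIs of the 6 less abundant genes in null-mother mesenchyme, 37.0% lay in 2 cells. The 32 and 15 male cells gave no value by sex. Blood progenitors (151 and 161 cells) had 5 of the 9 genes higher and 3 lower. Their median log2 ratio was 0.05, against 0.02 over all genes measured. The 1 gene past the fold there is given without the share over all genes, so this count is not read.

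Within the E18.5 null-mother library, all 9 genes were higher in female than in male cells. This comparison stays inside 1 library, so that library preparation and sequencing run were shared. It was added after the data were seen, and its male cells are also those of the male-cell comparison above. Among 3562 male and 3757 female non-erythroid cells, Ifit1 had 37 and 158 UMIs (0.904 and 5.04 CPM; 5.58-fold, 3.88 to 8.22) and Ifit3 112 and 463 UMIs (2.74 and 14.8 CPM; 5.40-fold, 4.39 to 6.70). Oasl2 had 2.20 and 10.1 CPM (4.60-fold), Ifi27l2a 32.6 and 118 CPM (3.62-fold), Rtp4 8.08 and 23.4 CPM (2.90-fold), Irf7 9.60 and 27.5 CPM (2.86-fold) and Isg15 13.3 and 36.8 CPM (2.78-fold). Ifitm3, at 304 and 500.3 CPM (1.64-fold, 1.60 to 1.68), and Bst2, at 87.1 and 140 CPM (1.61-fold, 1.54 to 1.69), were also past the fold. Of 11931 genes measured, 4.21% were past it in that direction. The median log2 ratio was 0.89 for the 9 genes and -0.01 for all genes.

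The same direction was present within the gated classes. In monocytes 8 of the 9 genes were past the fold (Ifit1 was under the minimum count), where 3.32% of genes were: Ifi27l2a had 224 and 761 CPM in male and female cells, Ifitm3 1334 and 2334 CPM, Isg15 18.7 and 76.3 CPM, and Ifit3 4 and 50 UMIs. In macrophages 7 of the 9 were, where 5.04% of genes were, with Irf7 at 97.2 and 217 CPM, Ifit3 at 60.3 and 206 CPM and Bst2 at 444 and 733 CPM. In endothelium 5 of the 9 were, where 6.56% of genes were, with Ifit3 at 31.2 and 174 CPM (5.58-fold), Isg15 at 67.0 and 221 CPM and Ifitm3 at 1013 and 1786 CPM. B lineage cells had 3 past the fold (3.71% of genes): Rtp4 (3.36-fold), Ifi27l2a (2.84-fold) and Isg15 (1.93-fold). Erythroid cells also had 3 (5.19% of genes), led by Isg15 at 64.1 and 320 CPM. Hepatocytes had 1 (1.93% of genes), Isg15, and blood progenitors 0 of 2 measured (3.5% of genes).

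In the neutrophil gate this direction was not present at the fold. None of the 9 was past the fold higher in female neutrophils, where 0.775% of genes were. Ifi27l2a was lower past it (0.659, 0.454 to 0.950), where 1.51% of genes were. Ifitm3 had 288 and 326 CPM in male and female neutrophils, and Bst2 27.9 and 29.2 CPM. Of 17 clusters with at least 50 cells of each sex, the summed 9 genes were higher in female cells with an interval above 1 in 14, and in none below 1. The 3 whose interval included 1 were all mostly neutrophils. Cluster 6, led by the early granule genes Ctsg, Elane and Mpo, was also mostly neutrophils by gate, and its summed genes were 1.57-fold higher (1.44 to 1.71) in female cells, with 7 genes higher and 2 lower. Cluster 10, also of neutrophils, had 1.13.

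**Figure D2:**
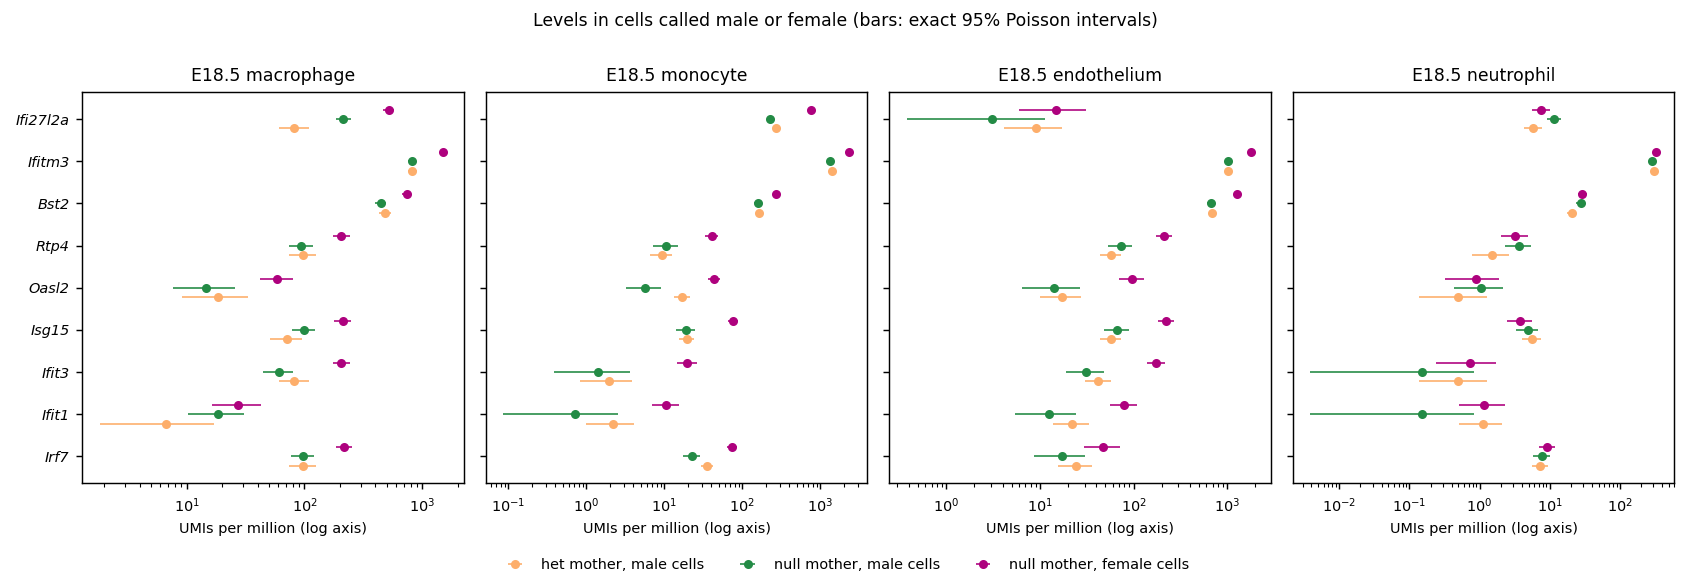
CPM (log axis) of the 9 genes in E18.5 macrophages, monocytes, endothelium and neutrophils, for male cells of the het-mother library and male and female cells of the null-mother library, with 95% counting intervals. In the first 3 classes the female cells lie above both sets of male cells for the measured genes. In neutrophils female cells lie above both sets for Ifitm3 and Bst2, by less than the fold. Ifi27l2a in neutrophils is lower in female than in male cells of the null-mother library.

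The classes where the genes were highest had similar shares in the 2 sexes. Macrophages were 2.95% of male and 2.71% of female non-erythroid cells, endothelium 3.09% and 3.17%, and monocytes 7.30% and 8.60%. The summed markers were 746 and 935 CPM for macrophages, 720 and 894 CPM for monocytes, and 137 and 157 CPM for endothelium. Other lists differed more: neutrophil markers summed to 47800 and 67916 CPM in male and female cells, B lineage markers to 613 and 1151 CPM, and hepatocyte markers to 39565 and 33015 CPM. The part of these in the result was not tested. Female cells had a lower median depth, 7014 against 10360 UMIs. At E14.5 Bst2 and Ifitm3 were lower in female cells of both libraries by less than the fold, with ratios of 0.865 and 0.897 (het mother) and 0.890 and 0.899 (null mother) and intervals below 1. Of the 9, 2 genes were higher and 7 lower in female cells of the het-mother library, and 4 higher and 5 lower in those of the null-mother library, with 0 past the fold in either. Of all genes, 1.6% and 1.9% were higher past it and 0.891% and 1.81% lower. Isg15 in the E14.5 null-mother library was lower in female cells, at a ratio of 0.624 with the higher level, that of male cells, under the minimum count (45 UMIs, against 69 in female cells).

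Single cells carrying several of the genes at once were concentrated in the same classes. Of the 6 less abundant genes (Ifit1, Ifit3, Isg15, Irf7, Oasl2 and Rtp4), at least 3 were detected in 185 of 17034 E18.5 het-mother cells and 529 of 16517 null-mother cells. Among macrophages the share was 12.6% and 35.3%, and 7.64% and 13.9% after thinning each cell to 2000 UMIs, which left 157 and 280 cells. In the null-mother library it was 30.5% of male and 61.8% of female macrophages, or 2.22% and 19.1% after thinning to 2000 UMIs (90 and 94 cells). Endothelium had 9.09% and 35.3%, and 2.02% and 22.3% after thinning (99 and 94 cells). Monocytes had 4.23% and 16.7%, and 1.17% and 6.80% after thinning (256 and 294 cells). In male macrophages of the het-mother library it was 23 of 100 cells, or 3.70% after thinning (81 cells). For comparison, neutrophils had 0.0281% and 0.191% in the 2 libraries before thinning (median 4368.5 and 6503 UMIs), and 0% and 0.0700% after. Erythroid cells had 0.0613% and 0.438% before thinning (median 3066.5 and 3173.5 UMIs), and 0.0274% and 0.201% after. These shares are not a level of free RNA alone. Isg15 is high in erythroid cells, and Irf7 had 32.3 and 41.2 CPM in neutrophils of cluster 4. The E14.5 libraries held 6 and 24 such cells, of which 6 and 18 were macrophages or monocytes.

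Isg15 was the one gene whose highest level, among classes of at least 50 cells, was in red cell precursors. Over all E18.5 erythroid cells it had 140 and 175 CPM with the het and null mothers (1.26-fold), against 0.240 and 0.889 CPM for Ifit3 and 0.901 and 2.47 CPM for Rtp4. The 2 libraries filled this class differently: cluster 1 held 37.0% of het-mother cells and cluster 0 held 67.2% of null-mother cells, and 81% of all genes were past 1.5-fold higher, so no count of the 9 genes is read there. By cluster, Isg15 was at 164 and 185 CPM in cluster 0 and 203 and 252 CPM in cluster 1, but 57.9 and 110 CPM in cluster 8 and 26.5 and 40.3 CPM in cluster 14. Haemoglobin took 90.3% and 84.6% of UMIs in cluster 8, against 50.6% and 54.4% in cluster 0. Without haemoglobin UMIs, Isg15 was at 598 and 710 CPM in cluster 8, above cluster 0 (332 and 405 CPM). Clusters 1 and 14 were then at 898 and 1047 CPM and at 35.0 and 45.9 CPM. The null-mother value of cluster 8 rests on 12 UMIs in 47 cells. Within the null-mother library, cluster 0 had 67.0 CPM in male and 389 CPM in female cells, and cluster 1 had 94.7 and 344 CPM. Male cells of cluster 1 in the het-mother library had 343 CPM, near the female value. Among male erythroid cells overall Isg15 was lower with the null mother, at 147 and 64.1 CPM (0.437, 0.351 to 0.540).

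Ifitm3 in neutrophils differed more between clusters than between the sexes. The clusters were built from the 2000 most variable genes, from which Ifitm3 was not kept out, so that this is a description. In the cluster led by the early granule genes Elane and Mpo (cluster 6) it was at 48.2 and 59.4 CPM in the het-mother and null-mother libraries. It was at 207 and 226 CPM in cluster 19, 361 and 388 CPM in cluster 3, and 631 and 600 CPM in cluster 10. In the cluster led by Retnlg, a gene of mature neutrophils (cluster 4), it reached 903 and 975 CPM. Male and female cells of cluster 4 in the null-mother library were at 962 and 960.1 CPM. The whole class had 417 and 371 CPM (0.891), with cluster 4 the largest part (31.4%) in the het-mother library and cluster 3 (30.4%) in the null-mother library.

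**Figure D3:**
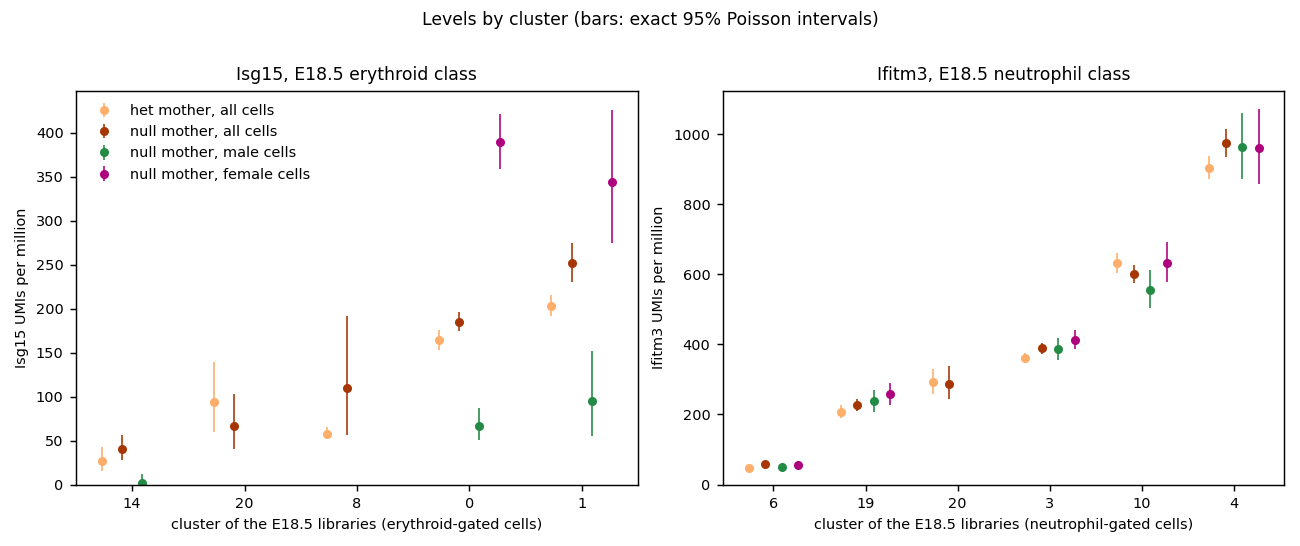
CPM of Isg15 by erythroid cluster and of Ifitm3 by neutrophil cluster at E18.5, by library and sex of the cells, with 95% counting intervals. Isg15 separates male and female cells of the null-mother library in erythroid clusters 0 and 1, while Ifitm3 rises from cluster 6 to cluster 4 with the sexes together.

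The wider pathway was read from lists of ligands, receptors and targets. The ligands themselves were almost absent: 18 of 20 interferon genes had no UMI in non-erythroid cells at E14.5 and 16 of 20 at E18.5, where Ifng, made by T and NK cells, was the 1 measured (40 and 95 UMIs). The receptors Ifnar1 and Ifnar2 were present throughout, Ifnar2 at 43.4 and 46.9 CPM at E18.5. At E14.5, 32 of 37 measured other interferon targets were higher with the null mother and 21 past the fold, where 8.58% of all genes were, led by Slfn2 (2.98) and Lgals9 (2.41), with Cxcl10 lower (0.548). All 12 measured antigen presentation genes were higher and 7 past the fold, against the same 8.58%, led by the immunoproteasome subunit Psmb8 (2.61) and the MHC class I gene H2-K1 (2.58). Of the 6 signal transduction genes, 4 were higher and 2 lower, and Irf9 was past the fold (1.53). In male cells at E14.5, 19 of 22 measured targets were higher and 10 past the fold, where 7.76% of genes were, and in female cells 29 of 31 and 16, where 7.11% of genes were. These counts move with the macrophage and endothelial markers given above, and the part of those was not tested. Within E14.5 macrophages and monocytes 5 of 19 measured targets were past the fold higher (8.09% of genes) and 1 lower. In endothelium 9 of 19 were higher past it (4.12% of genes), in lung epithelium 3 of 13 (4.43% of genes) and in mesenchyme 0 of 11. Antigen presentation genes higher past it were 1 of 11, 6 of 11, 2 of 7 and 0 of 5 in the same order.

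At E18.5 the lists of targets and of interferon-gamma GTPases gave different counts. With the null mother, 34 of 50 measured targets were higher but 3 past the fold, where 9.79% of all genes were, and in male cells 12 of 48 were higher, 2 past the fold, where 9.35% of all genes were, and 36 lower. The GTPases typical of interferon gamma were higher in 11 of 11, with 8 past the fold, and in male cells in 9 of 10 with 6 past the fold. Antigen presentation genes were higher in 13 of 13 with 1 past the fold, and in male cells in 10 of 12 with 0 past it. Igtp had ratios of 2.03 in all and 1.93 in male cells, and Ifi47 1.72 and 1.57. H2-K1 had 1.54 and 1.47, and the chemokine Cxcl10 2.71 and 3.72. Ccl5 was lower, at 0.620 and 0.316, as was Isg20, at 0.578 and 0.581.

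In the E18.5 null-mother library most targets were higher in female cells. There 47 of 49 measured targets were higher than in male cells and 33 past the fold, where 4.21% of all genes were. Examples, chosen after their values were seen, were Ccl5 (3.55-fold), Rsad2 (2.96-fold), Slfn5 (2.94-fold), Mx1 (3.10-fold) and Ifi44 (4.23-fold), and the 2 lower were Isg20 (0.850) and Cxcl10 (0.884). Ccl5 is a leading gene of the T and NK class, which held 0.646% of male and 1.28% of female non-erythroid cells (23 and 48 cells). The part of this in its ratio was not tested. Of the 6 signal transduction genes, 3 were past the fold, among them Stat2 (1.69) and Irf9 (1.61). The feedback inhibitors Usp18 (2.49) and Socs1 (1.71) were past it too. So were 3 of 12 measured sensors and adaptors, among them the nucleic acid sensors Zbp1 (2.83) and Dhx58 (1.99). The GTPases were higher in 10 of 10 but past the fold in 3, and antigen presentation genes in 10 of 12 with 1 past the fold, Tap1 (1.69). No type I interferon gene passed the minimum count in cells of either sex.

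Outside the 9, the genes whose levels over the 36 class sums were most like their mean were Parp14 (correlation 0.95), Ifih1 (0.91), Xaf1 (0.90), Gbp7, Slfn5, Stat2 and Tor3a (0.88 each) and Trim30a (0.87), out of 11358 genes ranked. All but Tor3a were on the lists of pathway genes. Parp14, an ADP-ribosyltransferase, peaked at 136 CPM in E18.5 macrophages of the null-mother library, and Ifih1, a sensor of double-stranded RNA, at 33.1 CPM in those of the het-mother library.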

How the data were processed

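Single-cell counts of 4 mouse libraries were used as deposited by the authors: whole-number UMI counts per gene and cell, with no normalization. The submitters' processing notes name Cell Ranger 3.0.0, Seurat 4.3.0 and mm10. The files give no cell types, so cells were gated on 18 fixed marker lists. A class needed at least 3 positive markers and a lead of 1.5 times over the next list. A positive marker had a UMI and a share of the cell's UMIs at least 2 times its share of the library. The cut for a marker thus differs between libraries, and the part of this in the ratios was not tested. E14.5 macrophages and monocytes were merged. No doublet caller was run. Counts were summed per library and class of at least 50 cells in both libraries. Ratios of CPM carry exact conditional intervals and log2 ratios a pseudocount of 10 CPM. The ratio and its interval were tested on simulated data. Clusters (Leiden, resolution 1, on the 2000 most variable genes of each age, scanpy 1.11.5, leidenalg 0.10.2) served as an alternative to gates. Python 3.11.15, numpy 2.4.6, scipy 1.17.1 and pandas 2.3.3 were used. Intervals and the floor of 3 UMIs cover counting error only, at total depths of 47005276 to 118054232 UMIs. The 9 genes and all lists were chosen with earlier results of these data known. All 9 genes are named. For the comparison of mothers, each pathway list was searched for the 2 largest and 2 smallest ratios and the 2 highest levels. Only some of those genes are named, more of them with a ratio above 1 than below, so the named genes do not stand for their lists. The comparison of female with male cells, its named genes and the counts within 1 sex were added after seeing the data, with at least 30 cells of a sex per class. Alternatives covered pseudocount, scaling, weights of cells, cell filters, gates, minimum count, fold, thinning and sex. Cells of either sex with both signals (7 to 431 per library) or neither (1977 to 11610) were left out of that comparison.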

Additional observations from a re-analysis of the deposited data

Results flagged for a closer look

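Bst2 at E14.5 had a null-mother over het-mother ratio of 0.664 in mesenchyme and 1.19 in endothelium, with counting intervals on opposite sides of 1, and the value in mesenchyme was not past the fold with clusters in place of gates. Isg15 at E18.5 had 0.768 in neutrophils and 1.73 in hepatocytes, and Ifitm3 at E18.5 had 0.697 in basophils and mast cells and 1.72 in T and NK cells. The differences between these classes were not tested. In male hepatocytes the log2 ratio of Isg15 was -0.032. Neutrophil clusters did not share 1 direction. With the het and null mothers Isg15 had 1.54 and 1.93 CPM in cluster 3 and 12.8 and 18.7 CPM in cluster 4. It had 3.76 and 5.28 CPM in cluster 10 and 0.887 and 1.70 CPM in cluster 19. In cluster 6 it was lower with the null mother, at 3.23 and 2.57 CPM. So it was in cluster 20, at 54.3 and 9.29 CPM (51 and 5 UMIs), where haemoglobin took 11.6% and 3.39% of UMIs.

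The ratio of female over male non-erythroid cells differed in side between the null-mother libraries of the 2 ages. Isg15 had 2.78 at E18.5 and 0.624 at E14.5, Bst2 1.61 and 0.89, and Ifitm3 1.64 and 0.899. These differences were not tested, and age cannot be told apart from tissue or from the fetuses pooled.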

How the results depend on the processing

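No paired analysis was possible because each group is 1 library. Of the single-gene ratios past the fold, 32 were followed under 10 alternatives, which gave 320 values: 10 turned sign and 49 others left their counting interval. No sign turned under either scaling, the stricter gate, clusters in place of gates or the cell filter. Depth limits Ifit1 and Ifit3 at E14.5, which had too few UMIs to show a difference, and the cause of the changes below was not tested. Apart from male-cell shares given above, the counts below stand without the share over all genes at the same setting. They show only how a count moves with the setting and cannot be read against other genes.

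With a pseudocount of 1 CPM the median log2 ratio of the 9 genes was 0.76 at E14.5, 0.45 at E18.5 and 1.43 for female over male cells. As means over cells, Irf7 at E14.5 had a log2 ratio of -0.015, and the genes higher past the fold numbered 1 in E14.5 endothelium, 1 in lung epithelium, 2 in E18.5 non-erythroid cells and 2 in neutrophils, and 0 were lower in mesenchyme.

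Male cells alone had 4 genes higher in E14.5 non-erythroid cells, 1 in macrophages and monocytes (Irf7 -0.25 and Ifitm3 -0.037 on the log2 scale), 0 in endothelium and 1 in lung epithelium, and 0 lower in mesenchyme. At E18.5 male non-erythroid cells had a median of -0.032, 0 genes higher, 1 lower and Ifi27l2a at -0.14. Male macrophages had 1 higher (Oasl2 -0.20), monocytes 0 higher and 2 lower (Ifit3 -0.064, Isg15 -0.031), endothelium 0 (Ifit3 -0.34, Oasl2 -0.17), and hepatocytes 0 (Isg15 -0.032). T and NK cells had 0, which says nothing of the genes because 39 and 23 male cells left each of them under the minimum count.

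With a minimum of 200 UMIs the genes higher numbered 3 in E14.5 non-erythroid cells, 2 in macrophages and monocytes and 1 in endothelium, and 1, 0 and 0 in E18.5 endothelium, hepatocytes and T and NK cells. Lower in mesenchyme there were 0, and higher in female macrophages, monocytes and endothelium 3, 3 and 2. With a minimum of 10 UMIs there were 2 lower in mesenchyme, 2 higher in neutrophils, 1 in B lineage, 5 in T and NK cells and 8 in female endothelium.

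At 2-fold the counts were 1 in E14.5 macrophages and monocytes, 1 in endothelium and 0 in mesenchyme. At E18.5 they were 1 in non-erythroid cells, 1 in macrophages, 0 in endothelium, 1 in hepatocytes, 1 in T and NK cells and 3 in female endothelium. Leaving out the deepest cells, past the 95th percentile of their library, they were 1 in E14.5 macrophages and monocytes, 1 in each endothelium and 2 in neutrophils, which also had 2 when cells needed 1000 detected genes and less than 10% of UMIs from mitochondria.

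Clusters in place of gates gave 0 lower in mesenchyme, 1 higher in lung epithelium, 1 in B lineage and 1 in T and NK cells, a stricter gate 1 in T and NK cells, and median-of-ratios scaling 0 in mesenchyme. Without cells whose barcode is in another library, chosen after seeing the data, there were 2 in E14.5 macrophages and monocytes and 1 in endothelium. Thinned to 2000 UMIs, the shares of cells with 3 of 6 genes in the het-mother and null-mother libraries were 7.64% and 13.9% for macrophages, 1.66% and 4.56% for monocytes and 3.36% and 7.23% for endothelium.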
